A study of Mus musculus with 6 samples.

Results

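The microRNAs miR-103-3p and miR-107-3p (mmu-miR-103-3p and mmu-miR-107-3p on the array) were examined in flank tumours of mice that carried Hepa1-6 cells, a mouse hepatoma line. They are 2 of the 1881 mouse miRNAs on the array and were taken by name, with no threshold on a measured value, although earlier results of these data were known when they were chosen. Each tumour was measured on its own one-colour Agilent array. The 3 tumours of the GLE group came from C57BL/6 mice treated with GLE, an abbreviation left unexplained in the labels, at a daily total of 0.023 g per 10 g mouse. The 3 tumours of the model group came from C57BL/6 mice given 0.2 ml of saline daily for 28 days, although another label lists their treatment as none. All 6 mice carried the same graft, inoculated in the right flank, and all are labelled with an age of 28 d. How long GLE was given is not stated in the sources used here. The graft is 1 cell line placed in the flank, not a tumour arising in liver, and the excised tissue holds host cells too, so fewer cells of a type and less RNA per cell cannot be told apart.

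A mature miRNA guides a silencing complex to messenger RNAs, mainly through its seed, the bases near its 5′ end that pair with the target. The miR-103 and miR-107 genes lie in introns of the pantothenate kinase genes Pank1, Pank2 and Pank3, whose enzymes carry out the first step of coenzyme A synthesis. In liver and fat the pair is known for its effect on insulin signalling through caveolin, and in tumours for lowering Dicer, the enzyme that cuts miRNA precursors into mature miRNAs.

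Both mature sequences were matched by name in RefSeq (2 of 2) and are printed with the seed, bases 2 to 8 from the 5′ end, in capitals.
miR-103-3p: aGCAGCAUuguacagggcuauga
miR-107-3p: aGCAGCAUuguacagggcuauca
The only base that separates them is G22C, with the miR-103-3p base first and positions counted from the 5′ end. Among 1679 mature mouse miRNA names in RefSeq, these were the only 2 with this seed.

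The probe sequences show what the array could tell apart. It carried 2 probes for each miRNA, printed as DNA with the base that reads position 22 in capitals.
A_54_P1341 (miR-103-3p): tCatagccctgtacaatg
A_54_P1342 (miR-103-3p): tCatagccctgtacaat
A_54_P1420 (miR-107-3p): tGatagccctgtacaatgct
A_54_P1421 (miR-107-3p): tGatagccctgtacaatgc
Each probe was the exact complement of its own miRNA and had 1 mismatch to the partner, at the probe's base 2 (C2G or G2C, counted from the probe's 5′ end). A_54_P1341 covered bases 6 to 23 of the miRNA and A_54_P1342 bases 7 to 23. A_54_P1420 covered bases 4 to 23 and A_54_P1421 bases 5 to 23, so none of the 4 probes spanned the whole seed. Against the other mature miRNAs long enough to compare (1625 to 1675 per probe), the closest had 5 mismatches to either miR-103-3p probe, 7 to A_54_P1420 and 6 to A_54_P1421. How much of each probe's signal came from the partner miRNA was not tested.

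The hairpins show why 1 miR-103 value stands for 2 genes. They are printed from RefSeq with the 3p arm that was measured in capitals.
Mir103-1: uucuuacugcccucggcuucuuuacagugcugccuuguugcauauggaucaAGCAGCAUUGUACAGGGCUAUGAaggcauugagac
Mir103-2: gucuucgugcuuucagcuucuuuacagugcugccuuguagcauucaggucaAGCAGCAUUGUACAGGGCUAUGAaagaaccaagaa
Mir107: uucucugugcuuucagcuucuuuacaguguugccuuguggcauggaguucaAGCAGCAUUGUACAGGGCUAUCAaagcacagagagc
In the RefSeq annotation of GRCm38.p6, Mir103-1 lies at chr11:35782396-35782481 on the plus strand, inside Pank3 (35769495 to 35791285). Mir103-2 lies at chr2:131288052-131288137 on the plus strand, inside Pank2 (131262008 to 131299188). Mir107 lies at chr19:34820687-34820773 on the minus strand, inside Pank1 (34806935 to 34883423). The 3p arms of Mir103-1 and Mir103-2 are identical, so both feed the same mature miR-103-3p. In the array's own mm9 positions, both miR-103-3p probes accordingly mapped to 2 places, chr2:131113844-131113861 and chr11:35595954-35595971 for A_54_P1341, both on the plus strand. The miR-107-3p probes mapped to 1 place, given as chr19:34895232-34895250 on the minus strand for A_54_P1420. The array therefore could not say which of the 2 miR-103 genes a signal came from, while miR-107-3p has 1 gene. The interval given for A_54_P1420 is 1 base shorter than the probe. It also lies above that of a miR-107-5p probe (A_54_P00005048, 34895198-34895213), although on a minus strand the 3p arm lies below the 5p arm. The interval of that miR-107-5p probe is likewise 1 base shorter than the probe. The exact miR-107 positions, of the 3p and the 5p probes, are thus not reliable.

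The arrays behind these values were alike in make-up but not in brightness. Each held 56430 spots that were not controls, for 4415 probes, with 0 saturated spots and 378 to 458 miRNAs detected per array. Their brightness, taken as the 75th percentile over the 636 probes detected on every array, was between 203 and 364 intensity units. All 6 arrays sat on 1 slide in 1 scan, with the GLE arrays in its row 1 and the model arrays in its row 2, so array row and treatment cannot be told apart. Over the 388 miRNAs bright enough to test, 0% passed an adjusted p of 0.05 (0 of 388, limma with Benjamini-Hochberg adjustment), 6 had an unadjusted limma p under 0.05, and the smallest adjusted p was 0.935. GLE replicate 2 stood apart from the other GLE arrays: without it, 107 miRNAs had an unadjusted p under 0.05 and 2 passed the adjusted threshold (miR-338-3p and miR-342-3p, named after their values were seen). Member values without that array are given beside the results.

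Both miRNAs were clearly present in every tumour. All 4 probes were well above background on all 6 arrays, with 15 spots per probe on each array. The mean spot intensity before scaling ran from 652 to 1279 for A_54_P1341, from 184 to 380 for A_54_P1342, from 369 to 663 for A_54_P1420 and from 102 to 190 for A_54_P1421. For every probe the brightest array was GLE replicate 2 and the next was model replicate 1, the same 2 arrays that came first by the 75th percentile. The spots of a probe agreed closely within an array, with coefficients of variation from 1.55% to 6.88%. Feature Extraction marked 12 of the 360 member spots as outliers (3.33%, against 2.89% of all spots), and these were left out. Of those, 8 were spots of A_54_P1341, all on GLE arrays. A single spot of A_54_P1342 on model replicate 1 read 4895 units where the used spots of that probe on that array read 306 to 338.

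**Figure D1:**
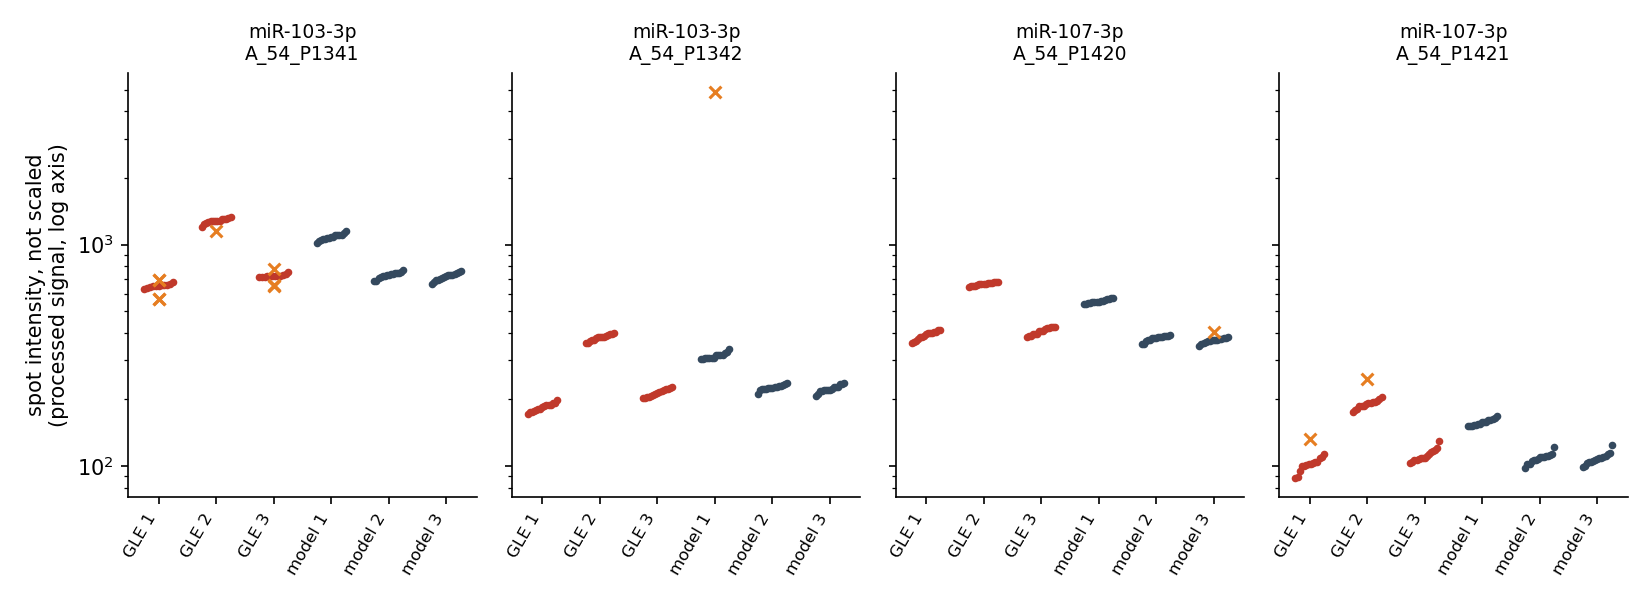
Processed signal of every spot of the 4 probes on each array (log axis, not scaled between arrays), with used spots as dots (GLE red, model dark blue; sorted by value within an array) and spots marked as outliers as orange crosses. Spots within an array lie close together, GLE replicate 2 is brightest for every probe, and 1 cross at 4895 units stands far above the other spots of A_54_P1342 on model replicate 1.

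Levels below are log2 values relative to each array's own 75th percentile (see the scaling above), averaged over a miRNA's 2 probes. They compare arrays for 1 miRNA, and not 1 miRNA with another, because probes differ in how brightly they bind.

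The level of miR-103-3p differed little between the groups. It was 0.77, 0.94 and 0.71 in GLE replicates 1 to 3, and 0.90, 0.81 and 0.93 in model replicates 1 to 3. The groups overlapped: GLE replicates 1 and 3 lay below all 3 model arrays and GLE replicate 2 lay above them all. The means were 0.81 ± 0.12 (SD, n = 3) for GLE and 0.88 ± 0.059 (SD, n = 3) for model. The difference, GLE minus model, was −0.073 ± 0.16 (SE of the limma fit), or a fold of 0.951, with an adjusted p of 0.950 (limma, Benjamini-Hochberg over 388 miRNAs). Its 95% interval ran from −0.44 to 0.30 in log2, a fold of 0.735 to 1.23. The two-sided exact permutation test over the 20 relabelings gave p = 0.4, where 0.1 is the smallest it can give. Without GLE replicate 2 the difference was −0.14 (adjusted p = 0.701, limma).

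The level of miR-107-3p also differed little. It was −0.028, −0.035 and −0.17 in GLE replicates 1 to 3, and −0.078, −0.19 and −0.076 in model replicates 1 to 3. Here GLE replicates 1 and 2 lay above all 3 model arrays, while GLE replicate 3 lay among them. The means were −0.079 ± 0.082 (SD, n = 3) for GLE and −0.12 ± 0.066 (SD, n = 3) for model. The difference was 0.037 ± 0.15 (SE of the limma fit), or a fold of 1.03, with an adjusted p of 0.963 (limma, Benjamini-Hochberg). Its 95% interval ran from −0.32 to 0.40 in log2, a fold of 0.799 to 1.32. The exact permutation test gave p = 0.5. The sign of so small a difference was not stable: it was negative under 6 of 15 other settings with all arrays kept, down to −0.052 when the 75th percentile was taken over all probes, and −0.0014 without model replicate 2. Without GLE replicate 2 it was 0.015 (adjusted p = 0.979, limma).

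**Figure D2:**
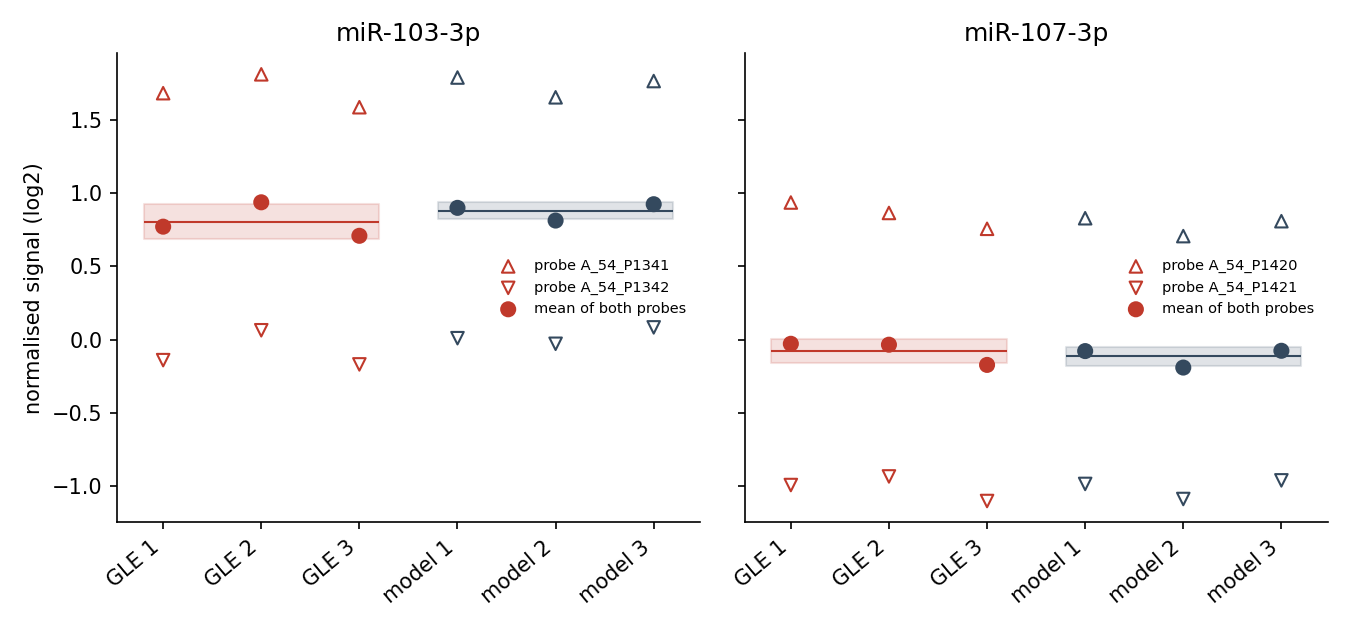
Normalised signal (log2, relative to each array's 75th percentile) of miR-103-3p and miR-107-3p on the 3 GLE (red) and 3 model (dark blue) arrays, with open triangles for single probes, filled circles for the mean of both, lines for group means and bands for ± 1 SD over 3 arrays. Group bands overlap for both miRNAs, and heights of different probes are not comparable.

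Read with their intervals, these values bound the change but do not show that the groups were equal. The interval half-widths were 0.37 for miR-103-3p and 0.36 for miR-107-3p, narrower than the median of 0.54 over all 388 tested miRNAs. By size of difference, with 1 the largest, miR-103-3p ranked 297 and miR-107-3p ranked 344 of 388. The median difference of all tested miRNAs was 0.0078, with 198 positive and 190 negative.

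Both members varied little between tumours, an aspect chosen after the values were seen and given without a test. The residual SD within groups was 0.093 for miR-103-3p, the 12th smallest of 388, and 0.074 for miR-107-3p, the 5th smallest, beside a median of 0.285. From the lowest to the highest array miR-103-3p spanned 0.23 and miR-107-3p 0.16, where the median miRNA spanned 0.78. The SE of the limma fit, which draws on the spread of all tested miRNAs, was larger than the SE from the 6 values alone, 0.076 for miR-103-3p and 0.060 for miR-107-3p. The ranks depended on the processing, given here for miR-103-3p and miR-107-3p in that order. With the 75th percentile over all probes they were 105 and 59, with no scaling 246 and 209, and with quantile normalisation 18 and 32. They were 71 and 135 with normexp and quantile normalisation, and 163 and 13 with outlier spots kept. In the authors' deposited table they were 8 and 16.

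The probes of each miRNA gave similar pictures. A_54_P1341, the brighter miR-103-3p probe, read 1.68, 1.81 and 1.59 in GLE and 1.79, 1.66 and 1.77 in model tumours, a difference of −0.043 ± 0.16. A_54_P1342 read −0.14, 0.064 and −0.17 in GLE and 0.010, −0.028 and 0.084 in model tumours, a difference of −0.10 ± 0.16. Both were lowest in GLE replicate 3 and highest in GLE replicate 2 or model replicate 3. For miR-107-3p, A_54_P1420 read 0.94, 0.87 and 0.76 in GLE and 0.83, 0.71 and 0.81 in model tumours, a difference of 0.071 ± 0.16. A_54_P1421 read −0.99, −0.94 and −1.10 in GLE and −0.99, −1.09 and −0.96 in model tumours, a difference of 0.0019 ± 0.16. The groups overlapped for all 4 probes.

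As a share of the summed signal of probes detected on all arrays, the pair was equally close between groups. The share of miR-103-3p was 0.207%, 0.245% and 0.202% in GLE and 0.251%, 0.228% and 0.217% in model tumours, with means of 0.218 ± 0.0233% and 0.232 ± 0.0174% (SD, n = 3; exact permutation p = 0.5). The share of miR-107-3p was 0.122%, 0.126% and 0.112% in GLE and 0.128%, 0.116% and 0.110% in model tumours, with means of 0.120 ± 0.00730% and 0.118 ± 0.00923% (SD, n = 3; exact permutation p = 0.9). For both miRNAs the share in the groups overlapped. A share depends on what a probe binds and on all brighter probes, so it is not a share of molecules.

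The authors' deposited table of log2 values for each miRNA and array also held both members. It gave miR-103-3p as 8.22, 8.22 and 8.17 in GLE and 8.26, 8.29 and 8.39 in model tumours, a difference of −0.11 in which every GLE value lay below every model value. Groups did not overlap for 9.28% (36) of the 388 tested miRNAs in the authors' deposited table. It gave miR-107-3p as 7.29, 7.43 and 7.26 in GLE and 7.34, 7.23 and 7.26 in model tumours, a difference of 0.052 with overlapping groups. In the authors' deposited table the limma adjusted p was 0.862 for miR-103-3p and 0.912 for miR-107-3p.

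The contrast between the partners was measured within each array, which cancels any scaling by 1 factor per array. The log2 difference miR-107-3p minus miR-103-3p, centred on its mean over the 6 arrays, was 0.14, −0.033 and 0.058 in GLE replicates 1 to 3 and −0.039, −0.065 and −0.061 in model replicates 1 to 3. The 3 GLE values lay above the 3 model values, but GLE replicate 2 and model replicate 1 were nearly level, and the GLE values spread more (SD 0.086, n = 3) than the model values (SD 0.014, n = 3). The mean was higher in GLE by 0.11 in log2, a fold of 1.08, and the two-sided exact permutation test gave p = 0.1, the smallest that 3 against 3 arrays can give. A difference between the groups in how the partners stand to each other was thus not shown at 0.05. Among all 388 tested miRNAs taken singly, 6.7% (26) had groups that did not overlap, and neither member was among them.

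That contrast rested on the choice of probes and arrays. Over the 4 combinations of a miR-107-3p probe with a miR-103-3p probe the difference was positive each time, at 0.11, 0.045, 0.17 and 0.11, and the groups did not overlap in 1 of the 4, A_54_P1420 minus A_54_P1341. Leaving out GLE replicate 1 lowered it to 0.067, and leaving out GLE replicate 2 raised it to 0.15. With outlier spots kept it rose to 0.29, of which the 1 spot of 4895 units on model replicate 1 made up most: with that spot left out and the other outlier spots kept, a setting chosen after its value was seen, the difference was 0.12.

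**Figure D3:**
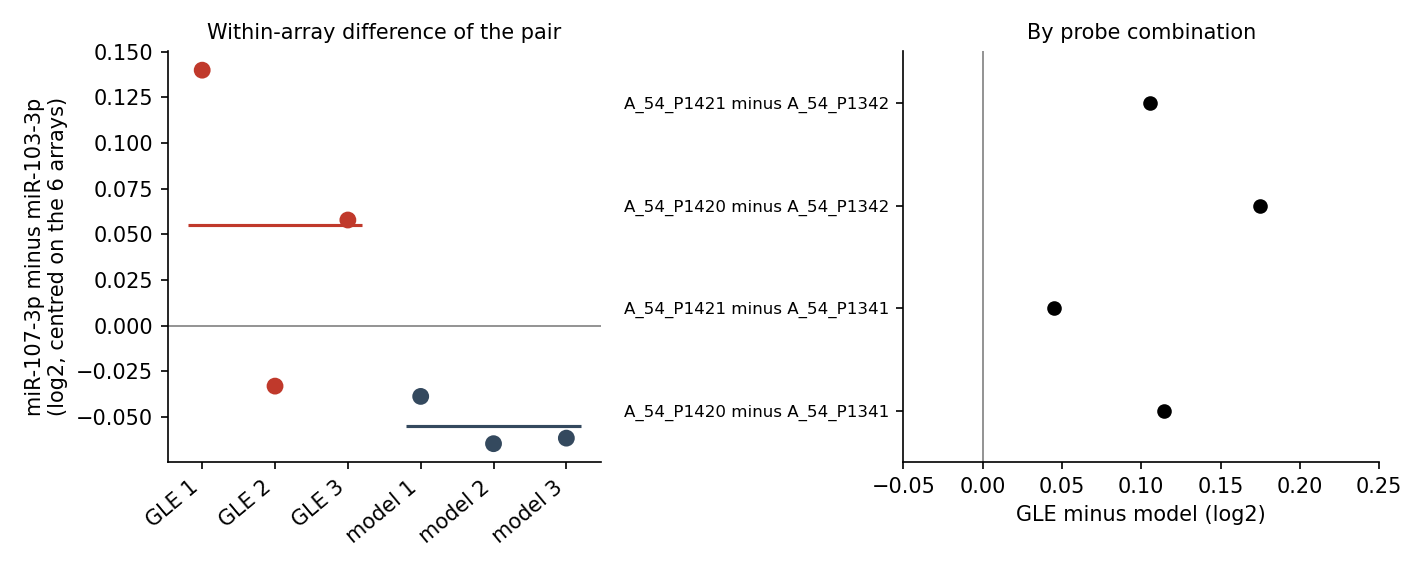
Left, the log2 difference miR-107-3p minus miR-103-3p on each array, centred on the 6 arrays, with lines at the group means (0.055 for the 3 GLE and −0.055 for the 3 model arrays); right, GLE minus model for each of the 4 probe combinations. GLE values lie above model values by a small margin at the nearest point, and all 4 combinations lie between 0.045 and 0.17.

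Whether the partners moved together over tumours could not be settled with 6 arrays. Pearson's r between their levels was 0.52 (exact permutation p = 0.314 over 720 pairings) and Spearman's rho was 0.31 (exact permutation p = 0.564), the only relation computed. Without GLE replicates 1 and 3, the 2 arrays farthest from the median of miR-103-3p, r was 0.98 over the 4 arrays left. The deviations from group means correlated at 0.75. The value turned on the scaling: r was 0.98 with no scaling, 0.96 with the 75th percentile over all probes, and −0.33 in the authors' deposited table. The brightness of an array shifts both members alike, so 0.98 and 0.96 cannot be told apart from brightness left in the values.

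The miRNAs whose pattern was most like each member were sought by the root mean square difference of centred log2 values over the 6 arrays. For miR-103-3p the 3 nearest were miR-24-2-5p at 0.046, miR-181b-5p at 0.063 and miR-27a-3p at 0.068, and miR-107-3p came 5th at 0.075, beside a median of 0.29 over all 387 others. For miR-107-3p they were miR-24-3p at 0.027, miR-7050-5p at 0.049 and miR-24-2-5p at 0.049, and miR-103-3p came 10th, beside a median of 0.27. Any miRNA that varies little lies near both members by this measure. The differences of these neighbours ran from −0.15 ± 0.16 for miR-181b-5p to 0.073 ± 0.16 for miR-7050-5p. With 1 array left out the former ran from −0.21 to −0.083 and the latter from 0.026 to 0.13. Choosing neighbours by closeness over the same arrays keeps their differences near those of the members, so these are no separate result. The level of miR-24-2-5p rested on 1 probe and ran from −3.83 to −3.60, near the floor of −4.25.

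The other strand of the hairpins, the 5p arm, is usually degraded after the precursor is cut. The mature 5p arms are printed with their seeds in capitals, since they differ from the 3p arms throughout.
miR-103-1-5p: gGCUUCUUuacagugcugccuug
miR-103-2-5p: aGCUUCUUuacagugcugccuug
miR-107-5p: aGCUUCUUuacaguguugccuug
From the first to the second the change is G1A, and from the second to the third C16U, counted from the 5′ end. On the array miR-103-1-5p and miR-107-5p had 3 probes each, and 0 spots of either were well above background on any array. Their probe means ran from −2.47 to 0.016 and from −2.28 to 0.21 intensity units. The miR-103-1-5p probes covered bases 8 to 23 at most, with 0 mismatches to miR-103-2-5p as well, and mapped to both miR-103 genes, so their signal stands for both 5p arms. No probe carried the name miR-103-2-5p among those analysed here.

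A wider set of miRNAs shares the run AGCAGC near the 5′ end with the pair, shifted by 1 base, and includes miR-15, miR-16, miR-195 and miR-497, which restrain cell cycle genes and BCL2. The 7 that were tested are printed with bases 2 to 8 in capitals to show the shift.
miR-15a-5p: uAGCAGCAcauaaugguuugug
miR-15b-5p: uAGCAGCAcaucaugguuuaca
miR-16-5p: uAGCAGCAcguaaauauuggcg
miR-195a-5p: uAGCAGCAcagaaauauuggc
miR-497a-5p: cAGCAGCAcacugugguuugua
miR-322-5p: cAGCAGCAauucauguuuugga
miR-503-5p: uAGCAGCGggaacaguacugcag
In these the shared run starts at base 2, whereas in miR-103-3p and miR-107-3p it starts at base 1, so the seeds differ. Of 13 listed relatives, 7 were tested, 6 with positive and 1 with negative differences, and 0 passed the adjusted threshold (limma). Their median was 0.28, beside 0.0078 over all tested miRNAs. The other 6 (miR-195b, miR-497b, miR-1907, miR-6342, miR-6353 and miR-6419) were detected on no array.

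The relatives spanned a wider range of differences than the pair. The largest difference was 0.64 ± 0.31 for miR-195a-5p, followed by 0.59 ± 0.30 for miR-497a-5p and 0.36 ± 0.18 for miR-15a-5p. The size of the first and second of these depended on single arrays: without GLE replicate 3 they were 0.38 and 0.32, and without GLE replicate 2 they were 0.95 and 0.87. The level of miR-16-5p was 1.79, 1.59 and 1.79 in GLE and 1.46, 1.33 and 1.56 in model tumours, with no overlap and a difference of 0.28 ± 0.16. The level of miR-322-5p was −0.37, −0.40 and −0.32 in GLE and −0.43, −0.47 and −0.48 in model tumours, also with no overlap, and its difference was 0.10 ± 0.15. These were 2 of the 26 miRNAs (6.7%) without overlap. The others were miR-503-5p at 0.035 ± 0.19, whose sign turned under 6 of 15 settings, and miR-15b-5p at −0.092 ± 0.20, which was 0.062 without GLE replicate 3. All 7 intervals reached across 0, and whether any relative differed from the pair was not tested.

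**Figure D4:**
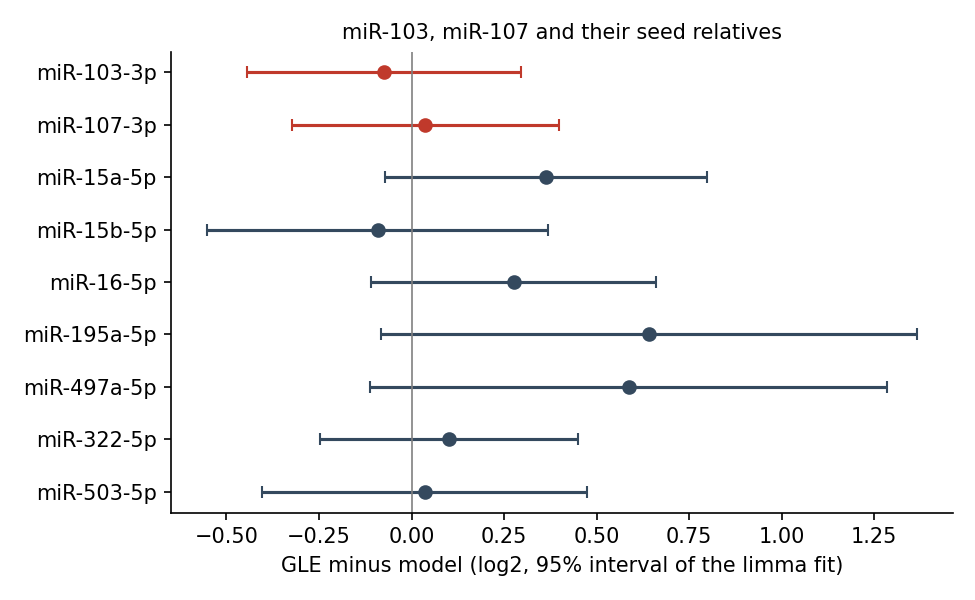
GLE minus model (log2) with the 95% interval of the limma fit for miR-103-3p and miR-107-3p (red) and the 7 tested miRNAs that share AGCAGC near the 5′ end (dark blue), 3 arrays per group. Every interval includes 0; the pair lie at −0.073 and 0.037 and the relatives between −0.092 and 0.64.

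Lists of miRNAs that share a known role with the pair are given by their counts. None of their members passed the adjusted threshold (limma, 0 in each list). Of the metabolism list, miRNAs with known roles in liver and fat, 10 of 14 were tested, 6 with positive and 4 with negative differences and a median of 0.12, and miR-378a-5p was the 1 without overlap, where all tested miRNAs had 6.7% (26 of 388). In that list miR-33-5p, which lies in the sterol regulator gene Srebf2 and lowers cholesterol export, was detected on 1 GLE array and 0 model arrays and was not tested. Of the let-7 list, which like the pair targets Dicer, 9 of 9 were tested, 5 positive and 4 negative, with a median of 0.020. Its 2 without overlap were let-7g-5p and let-7i-5p, to be read against the same 6.7% over all tested miRNAs.

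Of the hypoxia list, miRNAs reported to respond to low oxygen along with miR-103 and miR-107, 10 of 11 were tested, 3 positive and 7 negative, with a median of −0.084 and 0 without overlap. Its anchor miR-210-3p, a target of hypoxia-inducible factor, differed by −0.25 ± 0.20 with a 95% interval from −0.72 to 0.21. It was −0.12 without GLE replicate 3, −0.16 without model replicate 2 and −0.35 without GLE replicate 2. Of the p53-linked list 6 of 8 were tested, 5 positive and 1 negative, with a median of 0.37 and 0 without overlap. That list shares miR-143-3p and miR-145a-5p with the fibroblast and smooth muscle markers below, and miR-192-5p and miR-194-5p with the hepatocyte markers. Of the miRNAs that, like the pair, lie in introns of coding genes, 25 of 32 were tested, 14 positive and 11 negative, with a median of 0.031. Their 3 without overlap, of 25 tested, were miR-126a-3p, miR-340-5p and miR-7a-5p, beside 6.7% of all tested miRNAs. The named miRNAs without overlap in these lists were chosen after their values were seen. Other lists share members too, so their counts are not separate observations. For example, the metabolism list also holds miR-143-3p. The list of miRNAs in introns shares miR-126a-3p with the endothelial markers below and miR-342-3p with the blood-cell markers.

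Marker miRNAs of other cell types were set beside the pair, since a tumour holds host cells of several kinds. The log2 of the summed linear levels of 6 blood-cell miRNAs, in which the brightest count most, ranged from 2.45 to 3.96 in GLE tumours. In model tumours it ranged from 2.17 to 2.83, with positive differences for 6 of 6 and a median of 0.77. For 6 fibroblast and smooth muscle miRNAs the ranges were 0.70 to 2.38 in GLE and 0.51 to 1.17 in model tumours, with 5 of 6 positive and a median of 0.64. The hepatocyte list ranged from −0.86 to 1.38 in GLE and from −0.50 to 0.29 in model tumours, with 2 of 3 tested members positive and a median of 0.47. Its defining miRNA, miR-122-5p, was found above background on 1 array of each group, and miR-802-5p on none, in tumours of a hepatoma line. The other marker lists ranged in GLE and then model tumours from 1.52 to 2.00 and 1.20 to 1.44 (endothelial), 0.38 to 2.15 and −0.31 to 1.00 (skeletal muscle), 1.53 to 3.42 and 2.06 to 3.60 (erythrocyte), and 0.11 to 2.97 and 1.49 to 2.61 (epithelium and skin). Some of these went the other way: the erythrocyte list had 2 of 2 tested members negative with a median of −0.28, and the epithelium and skin list 2 of 2 negative with a median of −0.61. Of the endothelial list 1 of 1 tested was positive at 0.49 and without overlap, beside 6.7% (26) of all 388 tested miRNAs. Of the skeletal muscle list 3 of 4 were positive with a median of 0.51. In each of the other marker lists 0 were without overlap. No marker passed the adjusted threshold (limma), and over all tested miRNAs 198 of 388 differences were positive. Against the ranges of the marker lists miR-103-3p spanned 0.23 and miR-107-3p 0.16 over the same 6 arrays. The part of tumour makeup in the levels of the pair was not tested.

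The size and sign of the differences under other processing are shown together for both members.

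**Figure D5:**
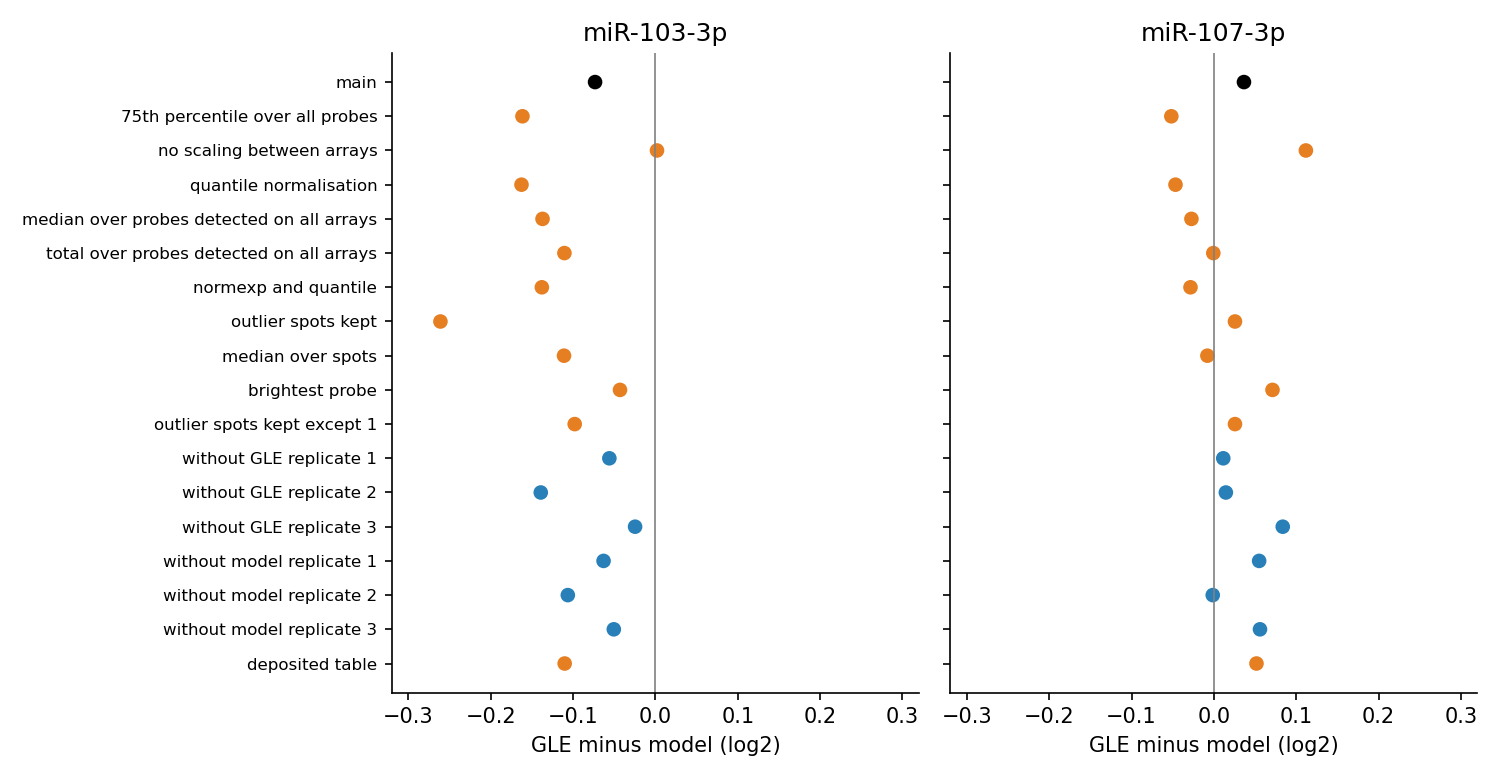
GLE minus model (log2) for miR-103-3p and miR-107-3p under the main processing (black), other settings (orange) and with 1 array left out (blue). Values for miR-103-3p run from −0.26 to 0.0020 and for miR-107-3p from −0.052 to 0.11, on both sides of 0 for both miRNAs.

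For miR-103-3p the difference was negative in all of these except with no scaling between arrays, where it was 0.0020. Its most negative value, −0.26, came with outlier spots kept, and it was −0.098 when the 1 brightest of those spots was left out. For miR-107-3p the values fell on both sides of 0. Under none of the 15 other settings or the 6 fits without 1 array did either member pass the adjusted threshold, with the smallest adjusted p at 0.452 for miR-103-3p and 0.633 for miR-107-3p (limma).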

How the data were processed

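Per the file headers, the authors' deposited scanner files came from Agilent Feature Extraction (version 10.7.1.1, also in the submitters' processing notes) and hold background-subtracted linear intensity per spot, with no normalisation from array to array. Probe positions are on mm9, per the file headers. The authors also deposited a table of log2 values for every miRNA on each array; how it was made: not given in the sources used here. Its ranks followed the scanner values (Spearman 0.963 to 0.973 across tested miRNAs, slope 1.09 to 1.17). Its column medians were −3.20, −3.32 and −3.27 for GLE and −3.32, −3.17 and −3.13 for model replicates 1 to 3, each the column's lowest value, shared by 69.2% to 75.8% of entries. Its scaling between arrays is not stated, so it served as an alternative. Some of its values recur exactly between arrays. These include 8.219512 for miR-103-3p in GLE replicates 1 and 2, and 7.2575464 for miR-107-3p in GLE replicate 3 and model replicate 3. Whether quantile normalisation gave such repeats was not tested.

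Control spots and outlier spots (1401 to 1883 per array) were left out and spots were averaged per probe. Detection of a probe required over 0.5 of its used spots (as a share) to be well above background. Arrays were divided by their 75th percentile over 636 probes detected on all arrays, floored at −4.25 (log2) and log2-transformed, and each miRNA took the mean of those of its probes that every array of 1 group or both detected. Groups were compared with limma 3.58.1 in R 4.3.3 (two-sided, lmFit and eBayes, with 4 residual degrees of freedom and 3.05 from the prior), and p-values were adjusted by Benjamini-Hochberg over 388 miRNAs. Exact permutation tests served for single values per array. With 3 arrays per group, their number limits the precision. Same-numbered GLE and model arrays did not deviate together (correlations −0.62, −0.18 and 0.37), so numbers were not taken as pairs. The labels give each sample as a tumour-bearing mouse, and p-values measure the spread between these samples. Named miRNAs are both members, the tested seed relatives, the other hairpin arms, the 3 nearest neighbours of each member, miR-33-5p and miR-210-3p. The members and lists were chosen with earlier results of these data known.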

Additional observations from a re-analysis of the deposited data

How the results depend on the processing

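The difference of miR-107-3p (0.037) turned negative with the 75th percentile over all probes (−0.052), quantile normalisation (−0.047), the median (−0.027) or total (−0.00069) of detected probes as scale, normexp with quantile normalisation (−0.028) and the median over spots (−0.0079), and ran from −0.0014 (without model replicate 2) to 0.084 with 1 array left out. That of miR-103-3p (−0.073) was 0.0020 with no scaling and ran from −0.14 to −0.025 with 1 array left out. These changes of sign lie within each difference's interval, and their cause was not tested. Relative to the median difference of all tested miRNAs, miR-107-3p was 0.029 in the main setting and with the all-probe percentile, median and total scalings. By the same measure it was 0.0099 with quantile normalisation, 0.012 with the median over spots and −0.0036 with normexp and quantile normalisation. The contrast of the partners (0.11) stayed positive, from 0.10 to 0.29 with all arrays kept and from 0.067 to 0.15 with 1 left out. The correlation of the partners (0.52) was 0.96 (exact permutation p = 0.00417) with the 75th percentile over all probes and 0.98 (p = 0.0125, exact permutation) with no scaling. It was 0.88 (p = 0.0139, exact permutation) with the median as scale and −0.33 in the authors' deposited table. The brightness of an array shifts both partners alike, so these p-values cannot tell co-variation of the pair from brightness left in the values. The count of miRNAs past the threshold was 0 under all 15 other settings and ran from 0 to 2 with 1 array left out. The difference in share of miR-103-3p (−0.0143 percentage points) was −0.0339 with outlier spots kept and −0.0156 with the brightest of them left out, and ran from −0.0276 to −0.00471 percentage points and that of miR-107-3p from −0.00251 to 0.00653 with 1 array left out, the latter negative without GLE replicate 2 (−0.00159) and without model replicate 3 (−0.00251). Among the other named miRNAs, miR-24-3p was −0.022 with the 75th percentile over all probes. miR-503-5p was −0.053, −0.00095, −0.028, −0.0019 and −0.012 with that percentile, quantile, median, total and normexp settings, −0.13 in the authors' deposited table, and −0.0032, −0.013 and −0.055 without GLE replicate 3, model replicate 1 and model replicate 2 (range −0.055 to 0.17 with 1 array left out). miR-7050-5p was −0.015 with that percentile, −0.012 with quantile, −0.0040 with normexp, −0.00038 with the median over spots, −0.015 with the brightest probe and −0.0043 in the authors' deposited table. miR-24-2-5p was 0.055 with no scaling, 0.011 with no filter, 0.043 without GLE replicate 3 and 0.019 without model replicate 1 (range −0.076 to 0.043), and miR-15b-5p was 0.062 without GLE replicate 3 (range −0.21 to 0.062). Scaling moved the median of all tested miRNAs from −0.080 to 0.079. With the replicate number as a block, 17 miRNAs had an unadjusted p under 0.05 against 6 without it and 0 passed (limma). In that fit miR-103-3p and miR-107-3p kept −0.073 and 0.037 (adjusted p = 0.980 for both, limma). The contrast of the partners kept 0.11 (exact sign-flip p = 0.25, the smallest that 3 pairs of arrays can give). That test therefore could not reach 0.05. The slide could not be fitted as a block because all arrays share 1 slide. Probes at the floor limit dim miRNAs but not these members, which were well above background on every array.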
